A study of Mus musculus with 4 samples.

Results

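The fibroblast growth factor (FGF) receptors and the genes that report on and restrain signalling below them were followed through single-cell RNA-seq of mouse undifferentiated spermatogonia. The set comprised 10 genes taken by symbol from the gene annotation of the libraries, out of 27514 genes listed in all 4 libraries. It held 3 receptors (Fgfr1, Fgfr2 and Fgfr3) and 7 genes that are induced by or feed back on the pathway (Spry1, Spry2, Spry4, Spred1, Spred2, Dusp6 and Etv4).

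Cells came from adult wild-type C57BL/6J mice aged 6 to 8 weeks. CTRL mice were untreated, whereas BU mice received busulfan, an alkylating drug that kills most spermatogonia, once at 10 mg/kg and were analysed at day 10. Both groups were sorted through the same gate as E-cadherin-positive, CD49f (α6-integrin)-positive and c-KIT-negative testis cells, so neither group represents the whole germline. The sort was done in 2 experiments with 1 CTRL and 1 BU library each, every library was a pool from 3 mice, and differences between single mice cannot be seen. Experiment 1 used 10x Chromium 3′ chemistry V2 and experiment 2 V3.1 according to the sample labels, whereas the study's methods name V2 only.

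FGFs bind receptor tyrosine kinases that activate RAS and the ERK kinases, and FGF2 together with GDNF supports self-renewal of spermatogonial stem cells in culture. ERK activity switches on transcription factors of the ETS family such as ETV4 and ETV5, and at the same time induces its own brakes. Sprouty (Spry) and SPRED proteins act on the route from receptor to RAF, and the phosphatase DUSP6 removes the activating phosphates from ERK, so transcripts of these genes are widely used as a readout of pathway output. GFRα1, the GDNF co-receptor, marks the stem cell fraction of undifferentiated spermatogonia, and the transcription factor SOX3 marks progenitors that are primed to differentiate.

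Cells with more than 1000 detected genes and less than 20% of unique molecular identifiers (UMIs) from mitochondrial genes were kept, which left 7493 cells (3101, 1120, 2008 and 1264 in CTRL 1, CTRL 2, BU 1 and BU 2). Library totals ranged from 21136369 to 53579969 UMIs, with a median of 8066 to 9857.5 UMIs per kept cell in experiment 1 and 30931 to 34176.5 in experiment 2. Gfra1+ and Sox3+ cells were those with a normalised level above 2, equal to 6.39 UMIs per 100000. At the median depth of experiment 1 a single UMI passes this level, whereas at that of experiment 2 more are needed. Gfra1+ cells made up 18.9%, 19.1%, 43.1% and 41.8% of CTRL 1, CTRL 2, BU 1 and BU 2, and Sox3+ cells 47.4%, 57.7%, 23.6% and 20.9%, with 385 of 7493 cells positive for both. With Gfra1 and Sox3 left out because they define the classes, the other 9 stem cell markers summed to 590 to 862 UMIs per 1000000 (CPM) in Gfra1+ only cells and 81.7 to 148 CPM in Sox3+ only cells. The other 6 progenitor markers summed to 316, 157, 167 and 119 CPM in Gfra1+ only cells of CTRL 1, CTRL 2, BU 1 and BU 2. In Sox3+ only cells they summed to 1069.7, 706, 484 and 328 CPM, so the BU sums lay below the CTRL sums. These sums describe cells already split by a gene of each list. The split also differed with depth. Sox3 was at 0.307 and 1.48 CPM in Gfra1+ only cells of CTRL 1 and BU 1 and at 15.8 and 14.3 CPM in those of CTRL 2 and BU 2. CTRL 2 and BU 2 shared 677 cell barcodes, and 224 of 1120 kept CTRL 2 cells and 523 of 1264 kept BU 2 cells carried a shared barcode, against 11 shared barcodes in experiment 1. In the shared pairs of experiment 2 the smaller copy held a median of 1.35% to 1.64% of the UMIs of the larger, and 70 barcodes were kept in both libraries. The tests of BU against CTRL and of the classes were also run without those cells, whereas the class by condition term, the shares of cells, the weighting of classes, the likeness of profiles and the levels of each library are given with them.

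Promoters are shown for Dusp6 and Spry1 as examples. Both genes passed the class test below with no overlap between the classes, and the reference window ends at their annotated start. The same holds for Spry2, whose promoter is not shown. Both promoters shown are the 250 bases before the start on the plus strand, taken from RefSeq on build GRCm38.p6, at chr10:99262981-99263230 for Dusp6 and chr3:37639697-37639946 for Spry1. Capitals mark each GGAA on either strand (TTCC where it lies on the other strand), the 4-letter core bound by ETS factors.
Dusp6: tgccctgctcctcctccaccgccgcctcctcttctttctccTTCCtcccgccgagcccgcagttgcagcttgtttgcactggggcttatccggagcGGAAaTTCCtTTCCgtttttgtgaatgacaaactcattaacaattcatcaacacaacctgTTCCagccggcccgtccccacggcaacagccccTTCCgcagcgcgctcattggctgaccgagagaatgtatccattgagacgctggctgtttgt
Spry1: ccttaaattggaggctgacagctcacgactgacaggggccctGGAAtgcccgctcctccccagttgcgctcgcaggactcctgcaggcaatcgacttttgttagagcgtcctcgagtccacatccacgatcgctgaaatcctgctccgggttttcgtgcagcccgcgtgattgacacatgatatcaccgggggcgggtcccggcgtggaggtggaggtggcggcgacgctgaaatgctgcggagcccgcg

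The Dusp6 window held 6 such cores and the Spry1 window 1. At least 1 core was present in 93.4% of 32851 promoter windows of the same length, with a median of 3, and 8.69% of windows held 6 or more. The longer ETS sequence CCGGAAG was found in neither window (6.91% of all windows), nor were TGACG, the core of the cyclic AMP response element (17.8%), or the CArG box of serum response factor (1.47%), searched on both strands. CCGGAAG contains GGAA, so those searches overlap. Among the other members with a window, the count of GGAA cores was 2 for Fgfr2, 1 and 5 for the 2 windows of Fgfr3, 3 for Spry2, 4 for Spred1 and 7 for Spred2, and Spred2 alone held a TGACG.

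The first comparison asked in which spermatogonia the pathway genes were found. Cells positive for both markers were set aside, and UMIs were summed over Gfra1+ only and over Sox3+ only cells of each library. All 7 feedback genes were higher in Gfra1+ only cells, from about 2-fold for Spred1 to about 8-fold for Dusp6, whereas the levels of Fgfr1 overlapped. In edgeR's quasi-likelihood test with library as a term, 9 of 10 members passed at an adjusted p of 0.05 (Benjamini-Hochberg over all genes), 8 higher and 1 lower in Gfra1+ only cells. Over all 14467 genes tested, 31.5% passed, 2340 higher and 2218 lower, and the median log2 difference was -0.01 against 1.51 for the members. The 4 library values of each class did not overlap for 8 of 10 members, 7 higher and 1 lower in Gfra1+ only cells, and for 14.4% of all genes tested (8.92% higher, 5.45% lower).

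**Figure D1:**
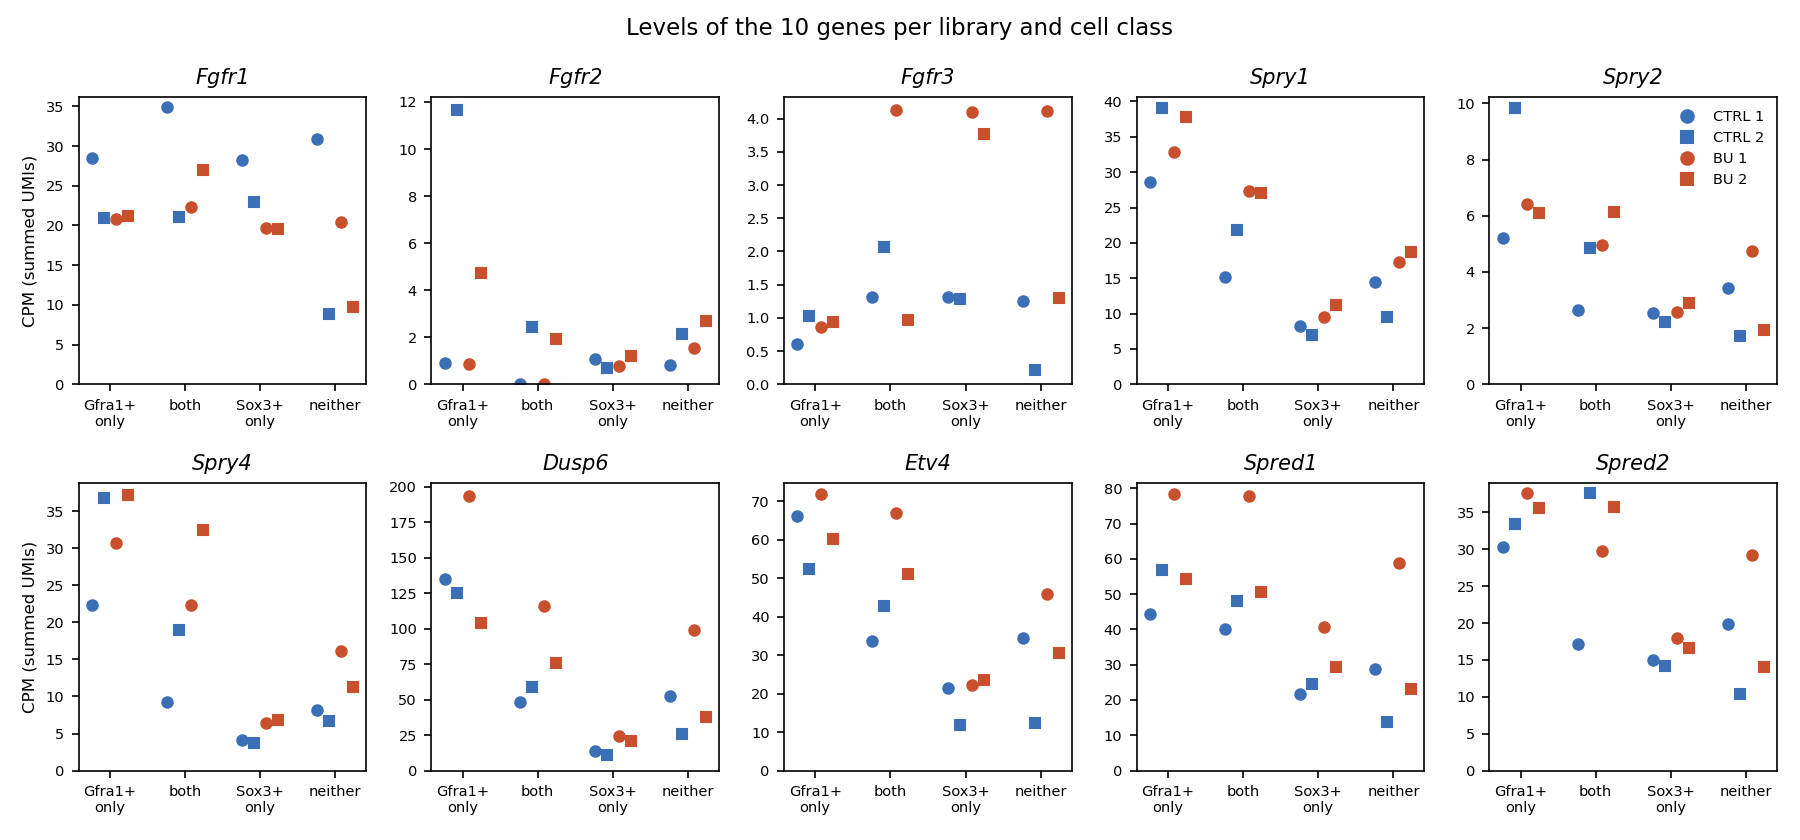
Level of each gene (y axis, CPM of the summed cells, separate linear scales from 0) in Gfra1+ only, double-positive, Sox3+ only and remaining cells (x axis). Each point is 1 library, blue for CTRL and red for BU, circles for experiment 1 and squares for experiment 2. The Dusp6 points of Gfra1+ only cells lie between 104 and 194 CPM and those of Sox3+ only cells between 10.6 and 24.3 CPM.

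Among the receptors, Fgfr1 (GRCm38, chr8:25513654-25575718, plus strand) was the one detected at a substantial level in spermatogonia. Its level was 28.5, 21.0, 20.8 and 21.2 CPM in Gfra1+ only cells of CTRL 1, CTRL 2, BU 1 and BU 2, and 28.2, 23.0, 19.7 and 19.6 CPM in Sox3+ only cells. The ranges of the classes overlapped, and the log2 difference was -0.03 ± 0.12 (SE, edgeR, adjusted p = 0.878). The sign of this difference turned under 4 alternatives, among them BU libraries only (0.15). After each cell was thinned to 5000 UMIs, 8.17% to 12.4% of Gfra1+ only cells and 6.90% to 12.7% of Sox3+ only cells had a Fgfr1 UMI, whereas none of the 31, 80, 7 and 53 cells rich in spermatid RNA did. The 3′ tags do not separate the splice forms of the receptors that differ in ligand preference.

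Fgfr2 (chr7:130162451-133123350, minus strand) was close to the detection limit and uneven between libraries. Its level was 0.921, 11.6, 0.862 and 4.72 CPM in Gfra1+ only cells and 1.07, 0.712, 0.769 and 1.22 CPM in Sox3+ only cells, so the classes were apart in experiment 2 and alike in experiment 1. The log2 difference was 2.07 ± 0.62 (adjusted p = 0.0319), and it was 1.11 with an adjusted p of 0.117 without CTRL 2. Summed somatic markers (17 genes) in Gfra1+ only cells were 266 and 179 CPM in CTRL 2 and BU 2 against 55.2 and 48.4 CPM in CTRL 1 and BU 1, with Dcn at 0 in all 4 libraries. In cells with at least 3 somatic markers, Fgfr2 was at 0, 6.68, 61.1 and 12.2 CPM. These cells also carried general germ and undifferentiated markers (6 genes) at 736, 888, 522 and 629 CPM, against 837, 792, 769 and 592 CPM in all cells. They were thus not somatic cells alone. With cells past the somatic, spermatid or Kit+ gate left out, Fgfr2 was at 0.934, 1.92, 0.131 and 0.507 CPM in Gfra1+ only cells. It then no longer passed the low-count filter of the class test.

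Fgfr3 (chr5:33721674-33737068, plus strand) had the opposite pattern, at 0.614, 1.04, 0.862 and 0.944 CPM in Gfra1+ only cells and 1.31, 1.29, 4.10 and 3.77 CPM in Sox3+ only cells. Every Sox3+ only value lay above every Gfra1+ only value, with 2 to 34 UMIs behind each. The log2 difference was -1.64 ± 0.41 (adjusted p = 0.0154). It was -1.45 with an adjusted p of 0.0628 without BU 1, Fgfr3 could not be tested without BU 2 or after cells of somatic, spermatid or Kit+ type were left out, and in CTRL libraries only it was -0.76 (adjusted p = 0.445). Kit+ cells (the same threshold applied to Kit), which the sort was meant to remove, carried Fgfr3 at 12.1, 0.883, 5.38 and 5.36 CPM. These values came from 36, 37, 322 and 156 cells, and the CTRL values, from few cells, lay far apart.

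The Sprouty genes were all higher in Gfra1+ only cells. Spry4 (chr18:38586247-38601415, minus strand) was at 22.4, 36.8, 30.7 and 37.2 CPM in Gfra1+ only cells and at 4.10, 3.69, 6.40 and 6.87 CPM in Sox3+ only cells. The classes did not overlap in any library, and the log2 difference was 2.59 ± 0.18 (adjusted p = 2.22e-05). Spry1 (chr3:37639947-37644598, plus strand) was at 28.5, 39.1, 32.9 and 37.9 CPM against 8.21, 6.90, 9.48 and 11.2 CPM. That is a log2 difference of 1.92 ± 0.15 (adjusted p = 4.04e-05), again with no overlap. Spry2 (chr14:105891947-105896819, minus strand) was scarce, at 5.22, 9.84, 6.41 and 6.09 CPM against 2.54, 2.23, 2.56 and 2.88 CPM, and differed by 1.37 ± 0.25 (adjusted p = 0.00402).

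The SPRED genes, whose products bring the RAS inhibitor neurofibromin to the membrane, showed the smallest class differences of the 7. Spred1 (chr2:117121374-117182279, plus strand) was at 44.5, 57.0, 78.4 and 54.4 CPM in Gfra1+ only cells and at 21.7, 24.4, 40.7 and 29.5 CPM in Sox3+ only cells, a log2 difference of 0.97 ± 0.09 (adjusted p = 0.000106). Spred2 (chr11:19924375-20024026, plus strand) was at 30.4, 33.4, 37.6 and 35.6 CPM against 15.0, 14.2, 17.9 and 16.6 CPM, a difference of 1.06 ± 0.11 (adjusted p = 0.000204). Neither gene overlapped between the classes, and within a library the Gfra1+ only level was 1.83 to 2.31 times that of Sox3+ only cells for both.

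Dusp6 (chr10:99263231-99267489, plus strand) had the widest class difference of the 10. Its level was 135, 125, 194 and 104 CPM in Gfra1+ only cells and 13.7, 10.6, 24.3 and 20.8 CPM in Sox3+ only cells. The lowest Gfra1+ only library lay more than 4-fold above the highest Sox3+ only library, and the log2 difference was 2.99 ± 0.16 (adjusted p = 1.02e-05). After thinning to 5000 UMIs, 37.2% to 55.7% of Gfra1+ only cells and 4.46% to 10.1% of Sox3+ only cells had a Dusp6 UMI, against 1 of 7 cells rich in spermatid RNA in BU 1 and none in the other libraries. Before thinning the shares were 56.6% to 86.0% and 8.94% to 28.5%. Etv4 (chr11:101769742-101785371, minus strand), which encodes an ETS factor, was at 66.3, 52.3, 71.8 and 60.2 CPM against 21.3, 11.8, 22.3 and 23.5 CPM. It differed by 1.65 ± 0.12 (adjusted p = 2.96e-05), with no overlap between the classes.

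**Figure D2:**
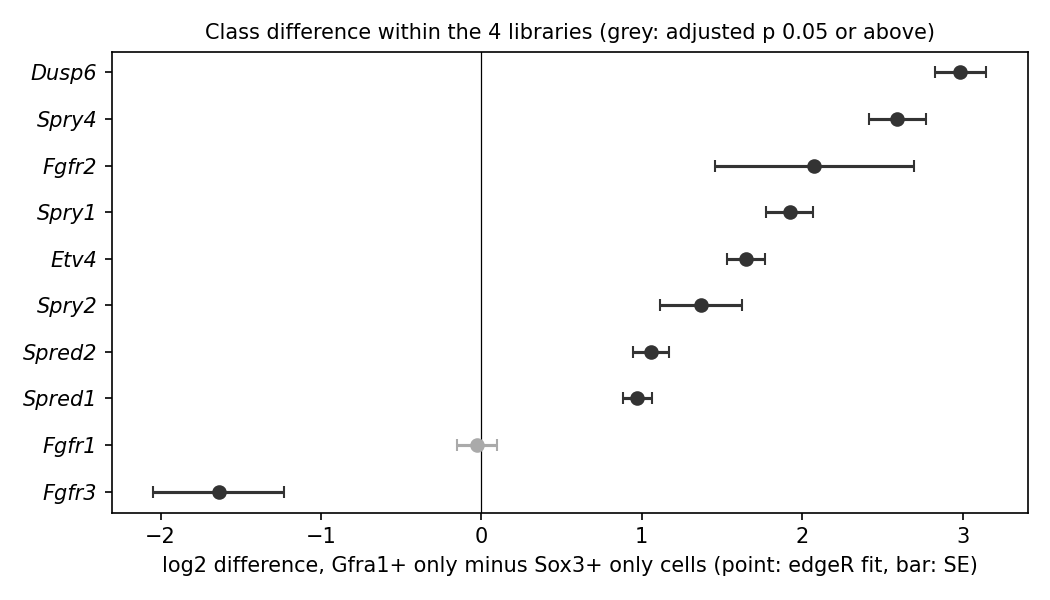
Log2 difference between Gfra1+ only and Sox3+ only cells (x axis) for each gene (y axis), with points from the edgeR fit over 8 sums of 4 libraries and bars for the SE. Black points passed an adjusted p of 0.05. Dusp6 lies farthest to the right at 2.99, Fgfr3 alone lies clearly to the left at -1.64, and Fgfr1 in grey sits at -0.03.

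Cells positive for both markers held intermediate levels. Dusp6 was at 48.1, 58.8, 116 and 75.9 CPM in these cells. Spry1, Spry4, Dusp6, Etv4 and Spred1 were each ordered Gfra1+ only, double-positive, Sox3+ only in 4 of 4 libraries, Spry2 in 3, Spred2 and Fgfr2 in 2, and Fgfr1 and Fgfr3 in none. Double-positive cells numbered only 150, 78, 100 and 57 in CTRL 1, CTRL 2, BU 1 and BU 2. Of them, 132, 76, 97 and 57 remained after cells with the highest doublet scores, marked at an assumed rate, were removed.

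The feedback genes were also counted cell by cell. At 5000 UMIs per cell, 2 or more of the 7 were detected in 37.4%, 44.3%, 54.2% and 42.5% of Gfra1+ only cells of CTRL 1, CTRL 2, BU 1 and BU 2. In Sox3+ only cells the shares were 6.87%, 4.11%, 11.4% and 8.87%. The exact 95% binomial (Clopper-Pearson) intervals, which cover counting error only, did not overlap between the classes in any library (32.4% to 42.5% against 5.55% to 8.40% in CTRL 1). Cells rich in spermatid RNA reached 3.23%, 0%, 0% and 1.89%, of 31, 80, 7 and 53 cells. The upper bounds of their exact intervals were 16.7%, 4.51%, 41.0% and 10.1%. Within Gfra1+ only cells, Dusp6 was detected in 35.0% to 61.5% of cells with a Spry4 UMI and in 36.5% to 54.9% of cells without, given as a description with no test.

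**Figure D3:**
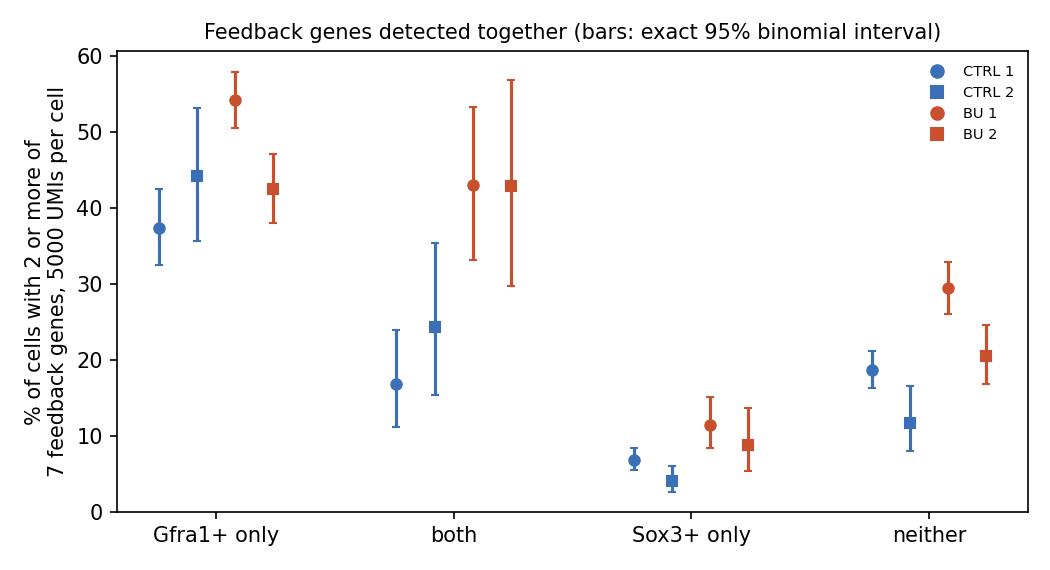
Share of cells (y axis, percent) in which at least 2 of the 7 feedback genes had a UMI after thinning to 5000 UMIs, by class (x axis) and library (blue CTRL, red BU, circles experiment 1, squares experiment 2), with exact 95% binomial intervals as bars. Gfra1+ only cells lie between 37.4% and 54.2% and Sox3+ only cells between 4.11% and 11.4%. Double-positive cells lie at 16.9% and 24.4% in CTRL and 43.0% and 42.9% in BU.

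Among Gfra1+ only cells, those with at least 2 of 7 mitotic markers at 5000 UMIs are called mitotic here. They numbered 204, 68, 557 and 295 in CTRL 1, CTRL 2, BU 1 and BU 2, and the others at that depth 168, 63, 190 and 173. The gate thus passed the larger part of these cells in every library and is not a count of cells in division. Mitotic cells had 0.818 to 0.925 times the Dusp6 level of the others, 0.713 to 0.962 times the Spry1 level and 0.858 to 1.18 times the Spry4 level. Spry2 was higher in mitotic cells of all 4 libraries, at 1.43, 2.17, 1.86 and 1.21 times the level of the others in CTRL 1, CTRL 2, BU 1 and BU 2. Those ratios rest on few UMIs, since Spry2 in the others averaged 4.90 CPM in CTRL and 4.34 CPM in BU. Spred1 was also higher in mitotic cells of all 4 libraries, at 1.14 to 1.22 times. Etv4 was at 1.17, 1.33, 0.985 and 1.22 times and Spred2 at 0.915 to 1.10 times. With mitotic cells left out, Spry2 had too few UMIs to be tested, and the other feedback genes again passed the class test. The value for each gene is a ratio of sums with 0.5 CPM added to both, and no test was run on it.

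The genes whose profile over 16 sums (4 libraries by 4 classes, centred within each library) was most like that of a member were named by Pearson's r, over points that share libraries and depth. The 4 classes were set by Gfra1 and Sox3, so a high r with stem cell markers is not independent of the class difference. Nefm (r = 0.995), Egr2 (0.993) and Etv5 (0.991), all of them on the stem cell marker list, were closest to Dusp6, and Etv5 (0.987), Spry1 (0.984) and Mtus1 (0.984) to Spry4. Spry1 was followed by Rpl39, Etv5 and Capg (0.987 to 0.988), Etv4 by Ccnd2, Chrna4 and Sphk1 (0.981 to 0.985). Spred1 was followed by Trappc1, Tjp1 and Fgd1 (0.981 to 0.986), Spred2 by Pitpnc1, Fryl and Midn (0.971 to 0.979) and Fgfr1 by Ganab, Hcfc1 and Ccnf (0.969 to 0.971). Fgfr2, Fgfr3 and Spry2 averaged under 10 CPM and were not ranked.

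Around the members, the other genes of the pathway were read list by list. Of 16 further ERK-induced transcription factors and targets, 15 were tested, 13 were higher in Gfra1+ only cells and none lower, with a median log2 difference of 2.26. Of all genes tested, 16.2% were higher and 15.3% lower. They included the immediate early gene Egr2 (3.39), the ETS factor gene Etv5 (2.55), Fos (2.26), Egr3 (1.95), Jun (1.84) and Egr1 (0.82). Lhx1 (4.49), Bcl6b (2.38), Phlda1 (2.67), Ccnd2 (1.93), Ier2 (1.75) and Ier3 (2.43) passed as well, and Myc (3.87) did so on 135 UMIs in all. Egr3 was at 0 in Gfra1+ only cells of both experiment 1 libraries and rested on experiment 2, at 12.9 and 20.4 CPM against 2.23 and 6.20 CPM in Sox3+ only cells. Lhx1, Egr2 and Etv5 are also among the stem cell markers used above.

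Of 16 other feedback regulators, 15 were tested, with 8 higher and 1 lower, where 16.2% of all genes tested were higher and 15.3% lower. The ERK phosphatase genes Dusp4 (3.22), Dusp5 (1.93), Dusp7 (0.87) and Dusp9 (0.61) were higher in Gfra1+ only cells, as were Spred3 (1.75), Il17rd (0.92), which encodes the FGF receptor inhibitor SEF, Rasa3 (0.54) and Rasa1 (0.27). Dusp2 had the reverse pattern (-2.60), with 3.07, 1.29, 3.08 and 4.15 CPM in Gfra1+ only cells and 9.36, 9.48, 24.1 and 26.1 CPM in Sox3+ only cells.

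Of 19 adaptor and RAS-ERK cascade genes, all were tested. For this list and the next, 16.2% of all genes tested were higher and 15.3% lower, and neither list was tested as a set. Shc1 (0.59) and Araf (0.38) were among those higher, and 5 were lower (Frs3 -0.93, Braf -0.51, Mapk3 -0.50, Hras -0.48, Map2k2 -0.35) in Gfra1+ only cells. The median log2 difference over the 19 genes was 0.03, a median of genes that differed in both directions. Of 16 other receptors and co-receptors, 12 were tested. The glypican genes Gpc3 (1.47) and Gpc4 (1.33) were higher, and Gpc6 (-1.19), Flrt2 (-0.97) and the decoy receptor gene Fgfrl1 (-0.68) lower.

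FGF genes themselves were sparse, and 6 of 22 were tested, of which 3 were higher and 3 lower in Gfra1+ only cells. Of all genes tested, 16.2% were higher and 15.3% lower. Fgf9 was at 9.51, 13.5, 15.6 and 17.1 CPM in Gfra1+ only cells and 1.64, 1.51, 3.59 and 3.88 CPM in Sox3+ only cells (log2 difference 2.44). Fgf8 was at 1.84, 1.81, 1.48 and 1.94 CPM against 20.8, 21.0, 3.33 and 3.99 CPM (-2.26). Fgf8 was thus high in Sox3+ only cells of CTRL libraries alone. The intracellular homologues split, with Fgf12 higher (2.04) and Fgf13 lower (-1.60), and Fgf18 (1.66) was also higher. Fgf22 (-2.43) was listed at 0 in both classes of experiment 1 and rested on experiment 2.

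The second comparison asked how the members differed between BU and CTRL libraries as a whole. From bulk RNA-seq of the same sorted fraction, the study had already reported Dusp6, Spry1, Spry4 and Fgfr2 as higher after BU. Over all kept cells, 8 of 10 members, Fgfr3 and the 7 feedback genes, were higher in both BU libraries than in both CTRL libraries, as were 18.5% of the 17354 genes tested (33.3% did not overlap in one direction or the other). None passed the test on condition alone in edgeR's quasi-likelihood fit (0 of 10 members, 0% of 17354 genes, with 926 genes at an unadjusted p under 0.05), and DESeq2 called 119 genes but no member. The replicate numbers mark experiments that shared a sequencing lane and kit, so the fit with the experiment as a block is given beside it. That fit called 258 genes, or 1.49%, and 1 member, Dusp6. Of 10 stem cell markers it called 3 higher and 0 lower, where 0.64% of all genes tested were called higher. The median log2 difference of those stem cell markers was 1.25. In a sum over all cells, fewer cells of a type and less RNA per cell cannot be told apart.

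Dusp6 was at 44.5 and 29.4 CPM in the CTRL libraries and at 123 and 63.7 CPM in the BU libraries. With 0.5 CPM added to both, as in all BU to CTRL ratios here, BU was above CTRL by 2.74-fold in experiment 1 and 2.15-fold in experiment 2, and the block fit gave a log2 difference of 1.32 ± 0.22 (adjusted p = 0.0431). Over 13 settings the adjusted p ran from 0.00759 to 1.00, and without any cell of a shared barcode it was 0.283 with a difference of 1.26. Spry4 stood at 8.14 and 8.87 CPM against 20.3 and 22.2 CPM. Its block difference was 1.35 ± 0.26 and just missed the threshold (adjusted p = 0.0598).

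The other feedback genes lay higher in BU without passing. Spry1 was at 13.3 and 11.9 CPM in CTRL and 22.5 and 25.6 CPM in BU, a block log2 difference of 0.96 ± 0.27 (adjusted p = 0.124). Etv4 was at 32.3 and 18.3 CPM against 52.7 and 42.5 CPM (0.99 ± 0.26, adjusted p = 0.108), and Spred1 at 28.1 and 26.8 CPM against 64.1 and 38.4 CPM (0.88 ± 0.26, adjusted p = 0.134). These groups did not overlap, and BU 1 stood well above BU 2 in Spred1. Spred2 was at 18.8 and 16.9 CPM against 30.4 and 24.4 CPM (0.64 ± 0.25, adjusted p = 0.227). Spry2 was at 3.20 and 3.06 CPM against 4.997 and 4.01 CPM (0.54 ± 0.32, adjusted p = 0.401).

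The receptors did not pass either. Fgfr1 was at 29.6 and 19.2 CPM in CTRL and 20.6 and 17.1 CPM in BU, which overlap (-0.32 ± 0.26, adjusted p = 0.550). Fgfr2 was at 0.904 and 2.28 CPM against 1.05 and 3.21 CPM, so the experiments differed more than the groups. Fgfr3 was at 1.21 and 1.06 CPM against 2.86 and 1.56 CPM (0.91 ± 0.40, adjusted p = 0.272). With somatic, spermatid and Kit+ cells left out, the block difference of Fgfr3 was 0.27 and that of Fgfr2 -0.54, while Dusp6 (1.23, adjusted p = 0.00759) and Spry4 (1.25, adjusted p = 0.0247) passed. Kit+ cells numbered 36 and 37 in CTRL and 322 and 156 in BU.

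The make-up of the libraries moved with these differences. Gfra1+ only cells held 12.3% and 10.0% of UMIs in the CTRL libraries and 38.6% and 40.2% in the BU libraries, and Sox3+ only cells held 45.9% and 58.3% against 18.6% and 17.2%. When the 4 classes of each BU library were weighted as in the CTRL library of its experiment, Dusp6 was at 77.4 and 37.4 CPM, or 1.73-fold and 1.27-fold the CTRL level in place of 2.74-fold and 2.15-fold. For Spry4 the ratios were 1.66 and 1.43 in place of 2.41 and 2.42, and for Spry1 1.21 and 1.40 in place of 1.66 and 2.11. Etv4 stood at 1.22 and 1.67, Spred1 at 1.90 and 1.19, Spred2 at 1.33 and 1.14 and Spry2 at 1.21 and 1.04 after weighting. Fgfr3 went the other way, from 1.97 and 1.32 to 2.47 and 2.03. This weighting was chosen after the values were seen and carries no test.

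**Figure D4:**
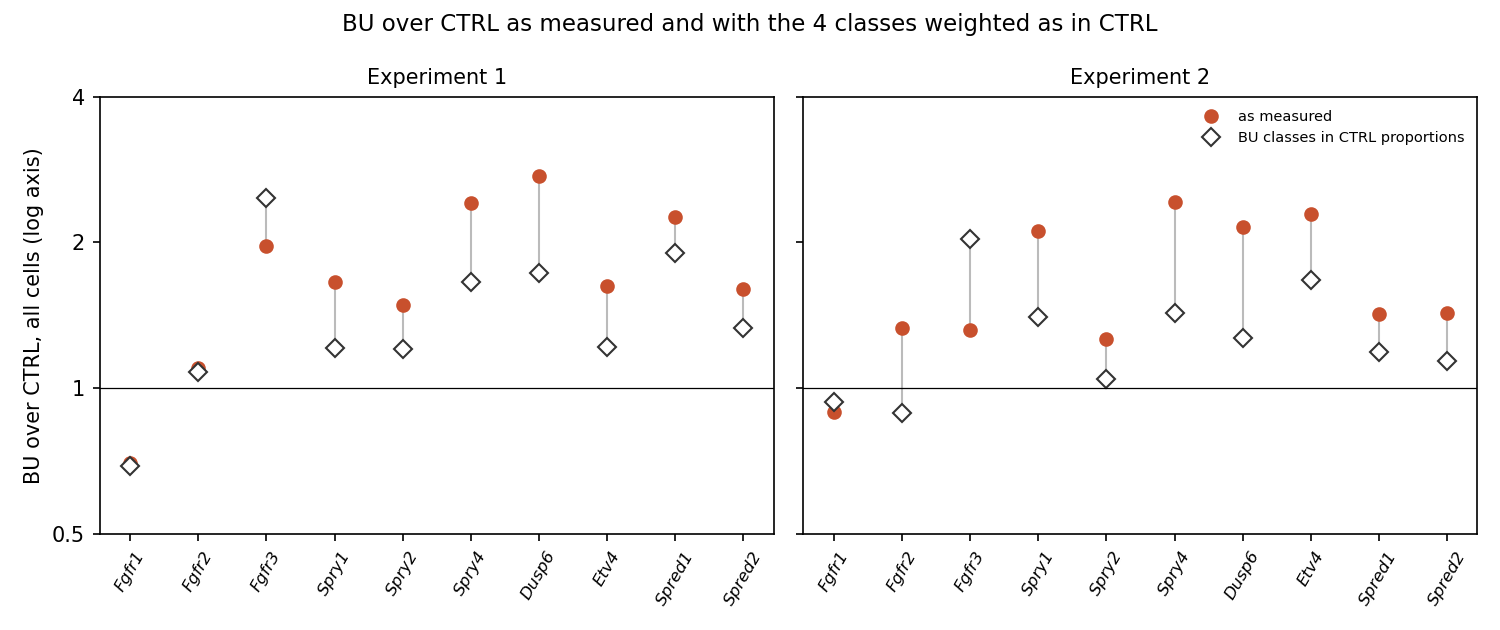
BU over CTRL level in all kept cells (y axis, log scale, 0.5 CPM added to both) for each gene (x axis) in experiment 1 (left) and experiment 2 (right). Red circles show the libraries as measured and open diamonds the BU classes weighted in CTRL proportions. The diamonds of all 7 feedback genes lie below their circles and at or above 1, from 1.04 to 1.90, and those of Fgfr3 lie above its circles.

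The third comparison looked inside the stem cell fraction. In Gfra1+ cells no member passed (0 of 10, 0% of 13632 genes; 583 genes had an unadjusted p under 0.05 and DESeq2 called 15 genes and no member), and the block fit called 9 genes, 0.066%, and no member. Dusp6 was at 107 and 96.8 CPM in CTRL and 184 and 100 CPM in BU, so BU 2 lay inside the CTRL range. The experiments differed, with BU 1.71-fold over CTRL in experiment 1 and 1.04-fold in experiment 2, and the block difference was 0.51 ± 0.23 (adjusted p = 0.426). With double-positive cells left out, BU was 1.44-fold and 0.830-fold the CTRL level.

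Spry4 was at 18.2 and 29.2 CPM in CTRL Gfra1+ cells and 29.6 and 36.6 CPM in BU (0.60 ± 0.24, adjusted p = 0.368). Spred1 was at 43.1 and 53.1 CPM against 78.3 and 53.9 CPM (0.53 ± 0.25, adjusted p = 0.440), and Etv4 at 55.9 and 48.3 CPM against 71.2 and 59.1 CPM (0.41 ± 0.21, adjusted p = 0.478). For these 3 genes, Spry1 and Spred2 both BU libraries lay above both CTRL libraries, which was so for 10.8% of all genes tested, but the lower BU library of the 3 was close to the higher CTRL library. Spry1 (0.40 ± 0.23), Spred2 (0.34 ± 0.24) and Spry2 (0.13 ± 0.36) had smaller block differences, as did Fgfr1 (-0.14 ± 0.27). Double-positive cells made up 25.6% and 36.4% of Gfra1+ cells in CTRL and 11.6% and 10.8% in BU. With them left out, the groups overlapped for Spry1, Spry4, Etv4 and Spred1 and stayed apart for Spred2. Over 16 settings no feedback gene was called in Gfra1+ cells, and the log2 difference of Dusp6 ran from 0.07 to 0.93. Summed mitotic markers in Gfra1+ only cells were 749 and 936 CPM in CTRL and 1377 and 1403 CPM in BU, and with mitotic cells left out the block fit called 90 genes and 0 of 9 members tested. The median log2 difference of those members was then 0.42, with Dusp6 at 0.54 (adjusted p = 0.465) and Spry4 at 0.75 (adjusted p = 0.353).

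The fourth comparison looked at Sox3+ cells. On condition alone no member passed (0 of 10, 0% of 14445 genes; 2028 genes had an unadjusted p under 0.05), while DESeq2 called 328 genes and 1 member, Dusp6. The block fit called 822 genes, 5.69%, and 2 members, Dusp6 and Spry4, both higher in BU. It also called all 6 progenitor markers tested lower in BU (3.11% of all genes tested). Of 4 differentiating markers it called 3 higher, and of 9 stem cell markers tested 4 higher and 0 lower (2.58% of all genes tested were called higher). The median log2 difference of those stem cell markers was 1.19. The Sox3+ cells of the 2 groups thus differed in these markers as well. Dusp6 was at 17.5 and 16.1 CPM in CTRL and 46.0 and 34.9 CPM in BU (1.21 ± 0.20, adjusted p = 0.0355). Spry4 was at 4.67 and 5.44 CPM against 10.2 and 13.4 CPM (1.18 ± 0.25, adjusted p = 0.0494). Neither gene overlapped between the groups. This was true of 9 of 10 members, 8 higher and 1 (Fgfr1) lower in BU, and of 46.9% of all genes tested (26.1% higher, 20.7% lower). For Dusp6 and Spry4, BU lay over CTRL by 2.06-fold to 2.58-fold in both experiments. Over 16 settings the adjusted p ran from 0.0116 to 0.792 for Dusp6, which passed in 6, and from 0.0222 to 0.893 for Spry4, which passed in 4. With positive cells defined by a marker UMI after thinning, Etv4 also passed (1.01, adjusted p = 0.0454).

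These calls were lost under several alternatives. With mitotic cells left out the block differences were 1.34 for Dusp6 (adjusted p = 0.0552) and 1.72 for Spry4 (adjusted p = 0.0541), and with somatic, spermatid and Kit+ cells left out 1.47 (adjusted p = 0.0723) and 1.56 (adjusted p = 0.0809), with no member passing in either. Double-positive cells made up 10.2% and 12.1% of Sox3+ cells in CTRL and 21.1% and 21.6% in BU. Without them the block differences were 0.85 for Dusp6 (adjusted p = 0.0680) and 0.73 for Spry4 (adjusted p = 0.169), and no member passed. Among Sox3+ only cells the CTRL libraries (13.7 and 10.6 CPM) and the BU libraries (24.3 and 20.8 CPM) did not overlap in Dusp6. The same was true of Spry4 (4.10 and 3.69 CPM against 6.40 and 6.87 CPM) and of all other members but Fgfr2, with Fgfr1 lower in BU. The share of all genes without overlap was not computed for Sox3+ only cells and was 46.9% in Sox3+ cells, so this sets neither gene apart. Gfra1 itself was at 0.328 and 7.70 CPM in Sox3+ only cells of CTRL and at 1.02 and 14.3 CPM in those of BU. Without any cell of a shared barcode neither gene passed (adjusted p = 0.117 for Dusp6 and 0.158 for Spry4), with differences of 1.20 and 1.27.

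Fgfr3 had the widest BU difference of the receptors, at 1.31 and 1.38 CPM in CTRL Sox3+ cells and 4.11 and 3.05 CPM in BU, with no overlap. The block difference was 1.31 ± 0.37 (adjusted p = 0.0855), and with somatic, spermatid and Kit+ cells left out it was 0.66 (adjusted p = 0.606). Kit was at 2.05 and 6.32 CPM in CTRL and 61.5 and 75.6 CPM in BU Sox3+ only cells, and Stra8, which marks entry into differentiation, at 63.7 and 37.9 CPM against 336 and 198 CPM. Spry1 (0.68 ± 0.23), Etv4 (0.73 ± 0.22) and Spred1 (0.66 ± 0.23) lay higher in BU without passing, with adjusted p from 0.0987 to 0.137. Spred2 (0.35 ± 0.21), Spry2 (0.40 ± 0.33), Fgfr2 (0.17 ± 0.54) and Fgfr1 (-0.33 ± 0.22) did not pass either.

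**Figure D5:**
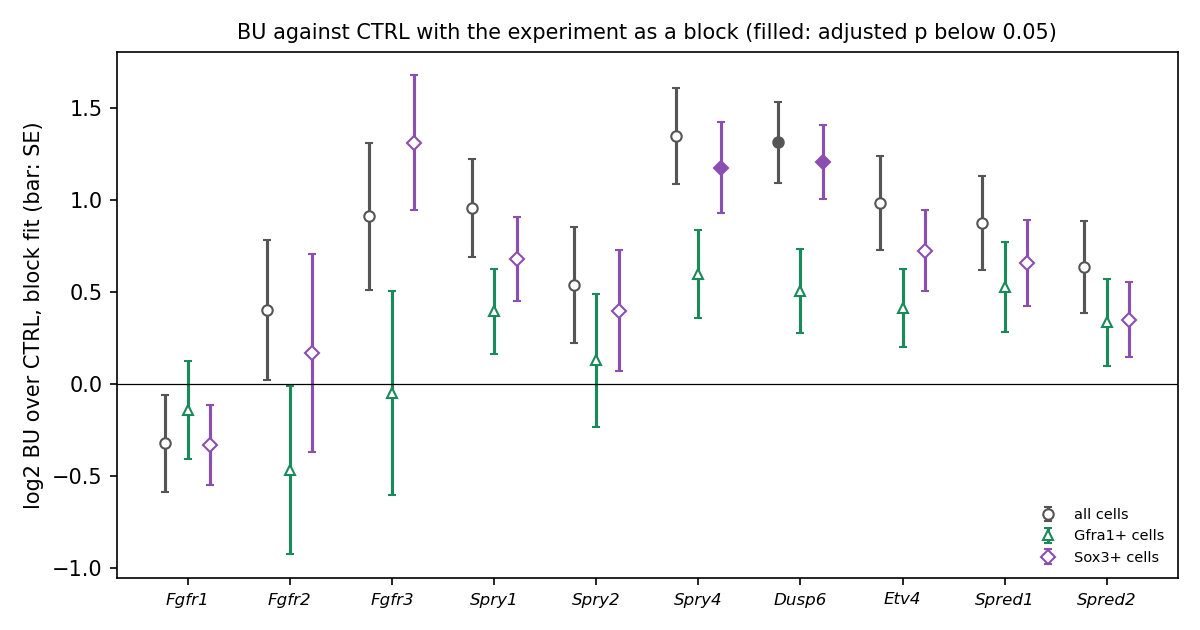
Log2 BU over CTRL (y axis, block fit, bars for the SE) for each gene (x axis) in all kept cells (grey circles), Gfra1+ cells (green triangles) and Sox3+ cells (purple diamonds). Filled symbols passed an adjusted p of 0.05, namely Dusp6 in all cells (1.32) and in Sox3+ cells (1.21) and Spry4 in Sox3+ cells (1.18). No Gfra1+ symbol is filled.

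Whether the BU difference itself differed between Gfra1+ only and Sox3+ only cells was tested with a class by condition term. None of the 10 members passed in edgeR (1436 of 14467 genes, 9.93%, did), and DESeq2 called 591 genes and no member. Dusp6 came closest, with a BU difference smaller by 0.63 ± 0.20 on the log2 scale in Gfra1+ only cells (-0.63, adjusted p = 0.0618, unadjusted p under 0.05 as the only member). It passed in 1 of 3 alternatives, with positive cells defined by a UMI of the marker after thinning (-1.18, adjusted p = 0.0402). The adjusted p ran from 0.0402 to 0.498. For the other feedback genes the estimates lay between -0.38 (Spry4) and 0.15 (Spred2), each with an SE of 0.15 or more.

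The shares of cells with a member's UMI at 5000 UMIs per cell were compared over libraries with an exact two-sided permutation test, which with 4 libraries cannot give a p below 0.333. In all cells the share with Dusp6 was 15.3% ± 2.54 (SD, n = 2) in CTRL and 31.1% ± 7.55 in BU, and in Gfra1+ cells 37.6% ± 0.399 and 45.5% ± 11.2. In Sox3+ cells it was 7.38% ± 0.456 and 15.2% ± 0.679. Spry4 went from 4.34% ± 0.738 to 10.4% ± 0.828 over all cells, and Etv4 from 11.5% ± 3.40 to 20.3% ± 0.515. That smallest p means only that the groups do not overlap. It was reached by 7 of 10 members in all cells, 4 in Gfra1+ cells and 8 in Sox3+ cells. Fgfr1 was among them in all 3, with a share that was lower in BU (11.4% against 7.99% over all cells). How many of all genes reach that p was not computed. On CPM the groups did not overlap for 33.3%, 32.3% and 46.9% of all genes tested in these 3 sets of cells. The smallest p thus sets no gene apart from the others.

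The pathway lists were read in the block fits in the same way, since no gene of any list passed on condition alone in edgeR. Over all cells, 5 of 16 ERK-induced genes were higher in BU and none lower (Lhx1 2.43, Phlda1 1.73, Ccnd1 1.62, Bcl6b 1.60, Ccnd2 1.23). Of all genes tested, 0.64% were called higher and 0.847% lower. The lists were chosen with earlier results of these data known. Besides the members named above, the study had already reported Lhx1, Ccnd1 and Bcl6b as higher after BU, Bcl6b in Gfra1+ cells of these single-cell data. It had also named Egr2 among stem cell genes that were typically higher. The count is therefore a description. Fgf9 (1.69) and Gpc3 (1.74) were also higher and Fgf8 lower (-2.63), while no adaptor, cascade gene or other feedback regulator passed. In Gfra1+ cells no listed gene passed, and those with the smallest unadjusted p among the ERK-induced genes were Lhx1 (1.505), Bcl6b (1.22) and Phlda1 (1.01). In Sox3+ cells 6 ERK-induced genes of 14 tested were higher (Lhx1 2.92, Ccnd1 1.90, Phlda1 1.61, Egr2 1.31, Ier2 1.27, Ccnd2 0.83), where 2.58% of all genes tested were called higher. The phosphatase genes Dusp4 (1.55) and Dusp2 (1.16), and Fgf12 (1.74), Gpc3 (1.39) and Flrt1 (1.67), were higher there too, and Mapk3 (-1.23), which encodes ERK1, Sdc4 (-0.90) and Fgf8 (-2.60) were lower.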

How the data were processed

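Sorted testis cells of 2 CTRL and 2 BU libraries were profiled by 10x Chromium. The deposited matrices hold UMI counts per gene and cell, made by the authors with Cell Ranger (3.0.2 per the file headers) and not normalised; the study's methods name mm10, the submitters' processing notes GRCm39 and Seurat 3.2. Gene coordinates here are GENCODE on GRCm38. Members and gene lists were chosen with earlier results of these data known. All 10 members are named, and of the other lists the genes that passed or, where none did, those of smallest p. One gene of the cascade list is not reported here.

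UMIs were summed per library and class and tested with edgeR 4.0.16 (quasi-likelihood, TMM, filterByExpr, Benjamini-Hochberg, threshold 0.05; R 4.3.3), with DESeq2 1.42.0 as an alternative. Where a count share is compared, each cell was thinned to a depth of 5000 UMIs, which drops cells below it (275, 113, 80 and 94 in CTRL 1, CTRL 2, BU 1 and BU 2). The mitotic gate and the thinned gate also used thinned cells, so fits that used either gate also left out cells below that depth. With mitotic cells left out, 227 of 585, 101 of 214, 215 of 865 and 184 of 528 Gfra1+ cells remained in CTRL 1, CTRL 2, BU 1 and BU 2. Of Sox3+ cells, 687 of 1470, 299 of 646, 99 of 473 and 65 of 264 remained. Somatic-marker cells had UMIs of at least 3 of 17 markers, cells rich in spermatid RNA over 5% of UMIs from 6 spermatid genes, and mitotic cells at least 2 of 7 markers. The somatic gate was applied without thinning and passed 41, 206, 26 and 190 cells of CTRL 1, CTRL 2, BU 1 and BU 2. Cells left out as somatic also carried germ markers and included spermatogonia. Doublets were marked as the cells with the highest doublet scores, at an assumed rate of 0.8% per 1000 cells (132 marked). They were removed only as an alternative. Other alternatives concerned the low-count filter, each library in turn, mitochondrial share, class definition and shared barcodes. The barcode alternatives, the class weighting and the GGAA search were chosen after seeing the data.

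Replicates are libraries of 3 pooled mice. In the fits on condition alone, p-values measure the spread between libraries of a group. In the block fits they measure the spread left after the experiment term, for which 4 libraries give little information. In the class test and the class by condition term they measure the spread left after the library term. Replicate numbers mark experiments with a shared lane and kit. Deviations of same-numbered libraries correlated at 0.784, the first component (68.4% of variance) separated the experiments and the second (25.3%) the conditions. Tested on simulated data, the block fit over all cells (17354 genes) recovered 91% of 200 genes changed by 2 on the log2 scale. The block fit over Gfra1+ cells (13632 genes) recovered 92.5%, with 7.5% of its calls false. The class fit (14467 genes) recovered 96.5% and the class by condition term (14467 genes) 70.5%. The fit on condition alone over all cells recovered 93% there, but called 0 of 17354 genes in the libraries. The simulated counts held no difference between experiments and the same spread for every gene. That spread was smaller than the one estimated in the libraries by this fit (coefficient of variation 0.527). Recovery of smaller changes was not tested. Over all cells the highest BU difference under any setting was 1.77 for Dusp6 and 1.38 for Spry4. These percentages therefore do not tell how often such a difference, or one of 2, would be found in these libraries.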

Additional observations from a re-analysis of the deposited data

Results flagged for a closer look

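The BU difference itself differed between Gfra1+ only and Sox3+ only cells, by the class by condition term of edgeR's quasi-likelihood test, for 12 genes of the pathway lists and for no receptor or feedback member, where 9.93% of all genes tested passed. With mitotic cells left out 2 genes passed in all (0.0172% of 11635, 671 at an unadjusted p under 0.05), and none of the 12 did (adjusted p from 0.152 to 0.939). As log2 differences of Gfra1+ only minus Sox3+ only, the estimate was above 0 for Fgf8 (2.63), Egr1 (1.57), Sdc4 (1.33), Il17rd (0.91) and Mapk3 (0.73). It was below 0 for Flrt1 (-1.87), Ccnd1 (-1.38), Lhx1 (-1.24), Sdc1 (-1.09), Egr2 (-0.89), Dusp9 (-0.64) and Hras (-0.40). With mitotic cells left out all 12 estimates kept their sign. They were larger in size for Flrt1 (-2.09), Egr2 (-1.79), Lhx1 (-1.62) and Dusp9 (-0.73) and smaller for the others, among them Fgf8 (2.57) and Mapk3 (0.29). Sox3+ only cells of BU 1 and BU 2 then numbered 74 and 54, down from 373 and 207, so the loss of calls does not show that the differences were gone.

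In 5 cases the BU to CTRL ratio of a member lay on opposite sides of 1 in the 2 experiments, and whether the experiments differ was not tested. In Gfra1+ cells the ratios in experiments 1 and 2 were 0.692 and 1.04 for Fgfr1, 1.11 and 0.593 for Fgfr2, 1.34 and 0.731 for Fgfr3, and 1.37 and 0.804 for Spry2. In Sox3+ cells they were 0.750 and 1.35 for Fgfr2.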

How the results depend on the processing

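The class differences of the 7 feedback genes kept their direction and passed under each alternative in which they were tested. The remaining results depended on the setting, and the causes were not tested. Over all cells 0 genes passed on condition alone, 258 with the replicate block (1 member), 119 by DESeq2 and 0 to 96 with a library left out. With the block, the counts were 859 without somatic, spermatid and Kit+ cells (2 members), 110 under 10% mitochondrial UMIs, 32 without doublets, 268 without the smaller copies of shared barcodes (1 member), and 0 without any shared barcode (no member; 1924 genes at an unadjusted p under 0.05). In Gfra1+ cells the 0 became 9 with the block, 15 by DESeq2, 50 with no low-count filter and 0 to 25 with a library left out. With the block it became 123 (mitochondrial), 77 (doublets), 567 (thinned gate), 6 (without double-positive cells), 90 (without mitotic cells), 1 (smaller copies) and 1 (all shared barcodes). In Sox3+ cells the 0 became 822 with the block (2 members), 328 by DESeq2 (1 member), 363 with no filter and 10 to 1331 with a library left out. With the block it became 15 without somatic, spermatid and Kit+ cells, 654 (mitochondrial, 1 member), 1118 (doublets, 2 members), 1238 (thinned gate, 3 members), 1041 (without double-positive cells), 207 (without mitotic cells), 865 (smaller copies, 2 members) and 26 (all shared barcodes). The class count of 4558 was 951 with no replicate block, where 7 members passed, and 2965 to 3921 with a library left out. The interaction count of 1436 was 591 by DESeq2, 320 with the thinned gate (1 member) and 2 without mitotic cells. The block changed no other member call than those of Dusp6 and Spry4 given above and, without it in the class test, Fgfr3 (adjusted p = 0.103) and Fgfr2 (not tested). Signs turned mainly for scarce receptors. Log2 differences over all cells ran, with a library left out, from -0.68 to 0.014 for Fgfr1 and from -0.55 to 1.22 for Fgfr2, which was -0.54 without somatic, spermatid and Kit+ cells. In Gfra1+ cells these ranges were -0.46 to 0.18 for Fgfr1, -2.36 to 2.13 for Fgfr2, -0.28 to 0.44 for Fgfr3 and -0.17 to 0.54 for Spry2. There Fgfr2 was 0.79 with the thinned gate and 1.16 without shared barcodes, Fgfr3 was 0.018 by DESeq2, 0.035 with no filter and 0.049 without doublets, and Spry2 was -0.017 without somatic, spermatid and Kit+ cells and -0.16 without double-positive cells. In Sox3+ cells Fgfr2 ran from -0.71 to 0.56 and was -0.071 without doublets. In the class test Fgfr1 ran from -0.092 to 0.062 and was 0.15 in BU only, 0.029 with the thinned gate and 0.054 without shared barcodes. The interaction was 0.87 (thinned gate) and 0.66 (without mitotic cells) for Fgfr2 and -0.12 for Spred2 without mitotic cells. Shares before thinning differed by 3.81 points for Fgfr1 and 0.143 points for Fgfr3 in Gfra1+ cells and 1.10 points for Fgfr2 in Sox3+ cells.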
